A study of Homo sapiens with 8 samples.

Results

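COLO741 is an established human tumour cell line that the labels describe as colon carcinoma. Here its 2 arrays were compared with the 6 arrays of SW620, HT29 and HCT116, established lines with that same description, so that all 8 arrays of the series were used. Every line was cultured in RPMI medium with serum and antibiotics and sorted by fluorescence with an antibody against ABCB5, a membrane transporter, into an ABCB5-negative and an ABCB5-positive population. Each population gave 1 array (Affymetrix Human Gene 1.0 ST), and no other treatment is named. SW620 is the name on the samples, which is followed here, although the text on the design has SW480 in its place. The members are all genes with a named probe set, 18417 in all, of which 16910 passed a filter on dim genes and were tested. COLO741 is 1 line and the comparison has 1 line against 3. The 2 arrays of a line share their line, nothing says that they came from separate cultures, and p-values therefore rest on the spread between the 3 other lines and, in the fit to all arrays, also on that between the arrays of a line.

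Melanocytes are pigment cells that arise from the neural crest of the embryo. They make melanin in melanosomes, organelles related to lysosomes, and the factor MITF, together with SOX10 and PAX3, switches on many of the genes of that pathway. Schwann cells, the insulating cells of peripheral nerves, share the neural crest origin and several marker genes. Colon epithelium is built instead on cell adhesion through EPCAM and E-cadherin, on desmosomes and on keratins 8, 18, 19 and 20, under transcription factors such as CDX1 and CDX2.

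Levels are log2 values as deposited, so that a difference of 1 stands for a factor of 2. The median level was 8.03 to 8.10 on every array. Across all probe sets the 2 arrays of a line correlated at 0.993 to 0.996, arrays of 2 of the other lines at 0.958 to 0.965, and a COLO741 array with an array of another line at 0.931 to 0.948. These correlations describe the arrays and share their probe sets. The level of probe sets for olfactory receptors, a family used in the nose, gave each array a background limit, at 7.38 to 7.55. A gene below the limit on all arrays of a group has only a bound there, and its difference is then also given as "at least N-fold". ABCB5, the gene of the sort, measured 9.42 on the COLO741 array labelled ABCB5-negative and 8.14 on the array labelled ABCB5-positive, against 5.24 to 5.69 on the other 6, all below the limit. It was thus measurable in COLO741 alone, where it ran against the label, at least 2.44-fold above the other lines. Its adjusted p was 0.105 with the line as a block and 0.0249 over line means, and an exact two-sided permutation test over the 4 lines gave its smallest possible p, 0.25.

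A gene is called higher or lower below only where 2 fits of limma passed an adjusted p of 0.05: a fit to all 8 arrays with a random block for the line and a covariate for the sorted population, and a fit to the 4 line means. The line-block fit called 518 genes, 3.06% of those tested, with 353 higher in COLO741 (2.09%) and 165 lower (0.976%). The line means gave 257 genes (1.52%), 218 higher (1.29%) and 39 lower (0.231%). Past both were 215 genes (1.27%), 182 higher (1.08%) and 33 lower (0.195%). Leaving out SW620, HT29 or HCT116 was planned for the line-block fit, which still called 627, 569 and 613 genes. The line means under these omissions were added after the data were seen. They had 1 residual degree of freedom, and limma called 0 genes by them, so that 0 passed both fits. By the line means 1749, 1772 and 1679 genes had an unadjusted p under 0.05. A stricter filter on dim genes, planned for the line block, left 58 past both, a count also added later. In all 353 and all 165 genes of the line-block fit both COLO741 arrays lay outside the range of the other 6. Over all tested genes this was so for 17.2% above and 17.4% below. The 518 genes were picked by these same values, so their separation follows largely from the choice and is no separate support. Among the 182 higher genes 145 were below the background limit on all arrays of the other lines. Among the 33 lower genes 16 were below it in COLO741 and not in the other lines. The lower gene H2AC14 was below it on all 8 arrays, at 4.08 and 4.37 in COLO741 against 7.07 to 7.42. For the 145 the spread between the other lines was taken at background, such as an SD of line means of 0.096 for TYR. Their p-values therefore do not measure variation of expression between those lines. The filter on dim genes used the mean over all 8 arrays, COLO741 included. Genes such as ABCB5, TYR, MMP8 and EDNRB, whose mean over the other lines lay under its cut of 5.735, thus passed it only through COLO741. For such genes the p-value is no support apart from the high COLO741 level, and their number was not determined. The 215 genes differed by at least 1.79 in size, with a median of 3.82, while the median difference of all tested genes was -0.035.

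**Figure D1:**
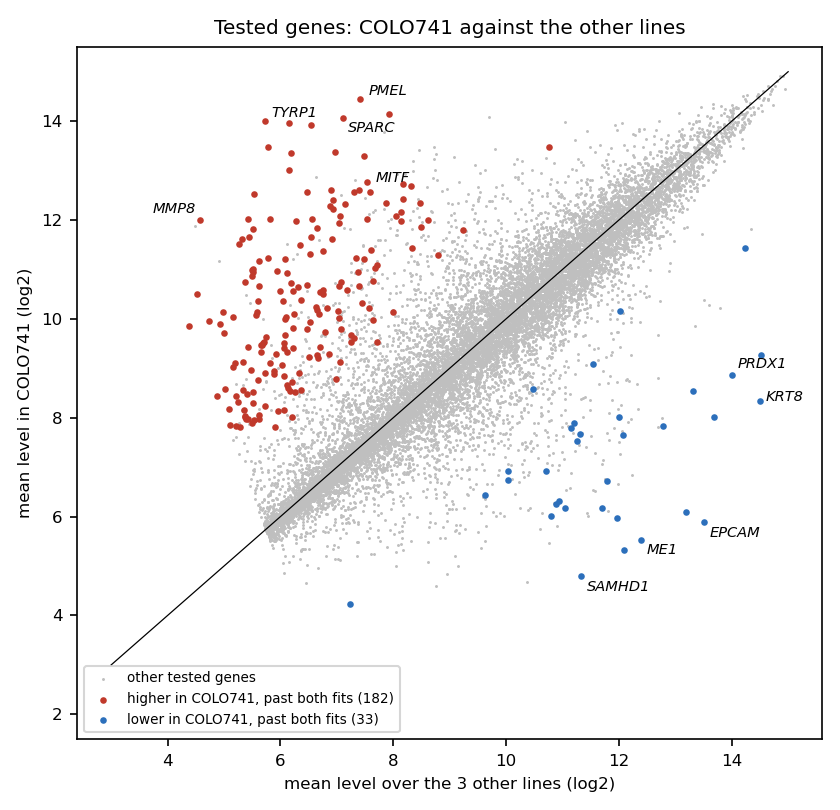
Mean log2 level of each tested gene in COLO741 (vertical axis) against its mean over SW620, HT29 and HCT116 (horizontal axis), with the 182 genes higher and 33 lower past both fits in colour and equal levels on the line. Most higher genes start from the dim end of the other lines, TYRP1 stands 8.26 above the line and EPCAM 7.62 below it.

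Melanocyte genes were among the largest differences of the whole comparison, which went against the colon label. All 7 measured melanocyte markers were higher in COLO741 by 3.11 to 8.26, against 1.08% of tested genes higher, and DCT was not analysed here. Of 12 colon epithelium markers 3 were lower (EPCAM, KRT8 and KRT19), against 0.195% of tested genes lower, and 0 were higher. TYRP1, an enzyme of melanin synthesis, measured 14.30 and 13.69 in COLO741 (in the order ABCB5-negative and ABCB5-positive, here and below). On the other 6 arrays its lowest, median and highest levels were 5.58, 5.74 and 5.88, at least 90.6-fold lower. MLANA, a melanosome protein known as an antigen of melanoma, measured 13.49 and 13.24 against 5.76, 6.29 and 6.44. The 2 groups lay far apart for both genes, and the other lines were at background. TYR, tyrosinase, which starts melanin synthesis, measured 11.99 and 12.06 against 5.23, 5.42 and 5.60. It passed the filter on dim genes only through COLO741. PMEL, whose protein forms the fibrils of the melanosome, measured 14.49 and 14.39 against 7.14, 7.30 and 7.89, a difference of 7.02 with only 2 of these 6 arrays, those of HCT116, above background. Of 2 measured Schwann cell markers both were higher. S100B, a calcium-binding protein of glia and melanocytes, measured 11.96 and 12.09 against 5.68 to 5.92, and CDH19, a cadherin, 10.10 and 9.98 against 4.97 to 5.32. Melanocytes also carry S100B, so these values do not separate the 2 cell types.

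**Figure D2:**
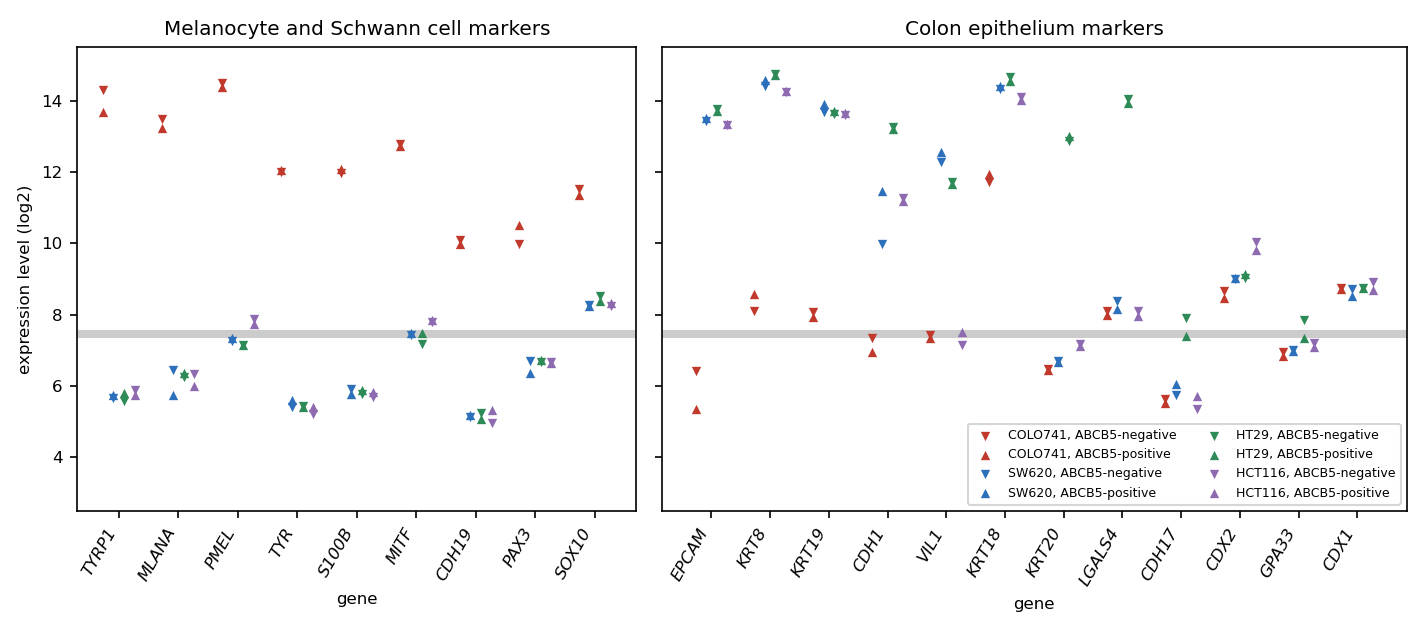
Log2 level (vertical axis) of the melanocyte and Schwann cell markers (left) and the colon epithelium markers (right) on each of the 8 arrays, coloured by line, with triangles pointing down for ABCB5-negative and up for ABCB5-positive populations and the grey band spanning the background limits of the arrays. COLO741 stands above all other arrays for every gene on the left, and below them for EPCAM, KRT8, KRT19 and KRT18 on the right, while CDX1 is level on all arrays.

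Proteins of the melanosome were higher in COLO741 for 8 of 13 tested members, beside 1.08% of all tested genes, and 0 were lower. The list's median difference was 5.18 beside -0.035 over all genes. The 8 were TYRP1, GPNMB, SLC24A5, MLANA, PMEL, TYR, SLC45A2 and OCA2. GPNMB, a glycoprotein of melanosomes and lysosomes, measured 14.04 and 13.88 against 5.95, 6.16 and 6.37, at least 88.4-fold (difference 7.81, SE 0.29, adjusted p = 5.57e-05 by the line block and 0.0154 by line means). SLC24A5, an ion exchanger named for its part in skin colour, measured 14.14 and 13.71 against 6.35, 6.48 and 6.86, at least 86.2-fold. SLC45A2 and OCA2, transporters of the melanosome membrane that are mutated in albinism, differed by 5.18 (SE 0.57, at least 20.3-fold) and 4.98 (SE 0.69, with 4 of the other 6 arrays above background). Their COLO741 levels were spread wider than those of TYR, at 12.13 and 11.55 for SLC45A2 and 13.05 and 12.10 for OCA2. The 5 members that passed neither fit were TRPM1 (1.75, at least 1.47-fold), SLC7A11 (1.30), GPR143 (1.25), ATP7A (0.48) and TPCN2 (0.05). TRPM1, an ion channel of melanocytes, had both COLO741 arrays above the other 6 at 8.56 and 7.53 against 6.09 to 6.49. SLC7A11, the cystine transporter, overlapped with HT29, whose mean was 12.74.

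Of 16 tested regulators and receptors of the melanocyte lineage 5 were higher and 1 was lower, with a median of 2.86. Over all tested genes 1.08% were higher and 0.195% lower. MITF measured 12.79 and 12.73 against 7.17, 7.49 and 7.86, a 37.3-fold difference with 4 of the other 6 arrays above background (adjusted p = 0.000170 and 0.0222). SOX10 measured 11.52 and 11.36 against 8.25, 8.29 and 8.53, and PAX3 9.99 and 10.51 against 6.37, 6.67 and 6.72. The groups did not overlap for any of these factors. EDNRB, the endothelin receptor that melanocyte precursors need, measured 12.40 and 12.66 against 5.40, 5.46 and 5.95, at least 32.8-fold, and ALX1, a homeobox factor, differed by 5.57, at least 12.9-fold. SOX9, a relative of SOX10 that is active in intestinal crypts, was lower at 9.14 and 9.05 against 11.34, 11.58 and 11.75, 5.48-fold. TFAP2A, a neural crest factor, passed the line block alone (4.50, adjusted p = 0.0341 and 0.326) and was spread over the other lines from 7.41 in SW620 to 10.03 in HCT116. LEF1 and SNAI2 passed neither fit, and SW620 also carried them. LEF1, a partner of beta-catenin, measured 12.13 in COLO741 and 10.42 in SW620, with 6.10 in HT29 and 6.19 in HCT116. SNAI2 measured 13.48, 11.48, 6.65 and 8.07 in that order. IRF4, a regulator of the tyrosinase gene, passed the line means alone, with 10.37 and 8.67 in COLO741. KIT, the receptor that melanocytes use for survival, was below background on all 8 arrays, at 5.04 to 5.20 in COLO741, and MC1R, the melanocortin receptor, lay at 8.29 beside 8.35 over the other lines.

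MITF is known to bind the letters TCATGTG and TCACGTG, so the promoter windows of pigment genes are printed here for those letters, and that of DSG2 for CACCTG, the letters that ZEB and SNAI factors bind. The windows run from 250 bases before to 50 bases after the gene's start, are credited to RefSeq on GRCh38.p14 and read 5′ to 3′ along the plus strand, on which all 5 genes lie. The window of TYR is chr11:89177625-89177924, that of TYRP1 chr9:12693135-12693434, that of SLC24A5 chr15:48120740-48121039, that of GPNMB chr7:23246525-23246824 and that of DSG2 chr18:31497927-31498226. Capitals mark the letters searched, on either strand.
TYR: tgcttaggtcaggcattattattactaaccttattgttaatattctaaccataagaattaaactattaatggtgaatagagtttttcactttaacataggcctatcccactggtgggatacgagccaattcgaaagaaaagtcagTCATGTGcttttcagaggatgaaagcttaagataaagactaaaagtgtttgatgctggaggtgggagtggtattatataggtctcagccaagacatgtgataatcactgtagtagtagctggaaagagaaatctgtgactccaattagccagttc
TYRP1: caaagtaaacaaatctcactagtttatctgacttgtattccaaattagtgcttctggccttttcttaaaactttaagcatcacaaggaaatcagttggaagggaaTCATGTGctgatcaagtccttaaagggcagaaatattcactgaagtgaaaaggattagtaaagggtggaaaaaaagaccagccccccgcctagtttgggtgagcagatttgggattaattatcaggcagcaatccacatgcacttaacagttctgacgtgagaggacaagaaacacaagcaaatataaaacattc
SLC24A5: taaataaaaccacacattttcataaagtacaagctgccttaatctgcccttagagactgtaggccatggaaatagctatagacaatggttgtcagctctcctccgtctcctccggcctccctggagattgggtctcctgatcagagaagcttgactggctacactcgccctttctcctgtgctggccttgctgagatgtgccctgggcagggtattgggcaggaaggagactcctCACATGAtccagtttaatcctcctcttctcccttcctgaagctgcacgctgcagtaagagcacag
GPNMB: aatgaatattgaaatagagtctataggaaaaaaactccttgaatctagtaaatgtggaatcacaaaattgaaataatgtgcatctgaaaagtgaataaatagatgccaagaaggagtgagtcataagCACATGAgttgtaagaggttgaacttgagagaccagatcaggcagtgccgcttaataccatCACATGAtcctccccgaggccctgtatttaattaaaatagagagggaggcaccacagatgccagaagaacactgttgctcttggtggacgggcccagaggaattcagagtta
DSG2: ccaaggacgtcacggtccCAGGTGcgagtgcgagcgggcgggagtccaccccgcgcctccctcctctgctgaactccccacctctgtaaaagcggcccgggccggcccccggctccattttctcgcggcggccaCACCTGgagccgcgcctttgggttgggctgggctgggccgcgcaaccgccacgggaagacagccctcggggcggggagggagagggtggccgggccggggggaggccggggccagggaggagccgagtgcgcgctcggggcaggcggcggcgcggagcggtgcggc

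Windows were found for 10 of the 13 melanosome protein genes. TCATGTG stood in those of 5 (TYR, TYRP1, SLC24A5, GPNMB and GPR143), 50% of these genes, beside 3.59% of the 27305 genes of the table and 2.91% of the tested genes with a window. The shorter CATGTG, which TCATGTG contains, stood in 7 of the 10, with OCA2 and TRPM1 added, beside 13.4% of all genes. TCACGTG, which contains CACGTG, stood in the window of ATP7A alone, and in 4.49% of all genes. In TYR and TYRP1 the 7 letters began 105 and 145 bases before the start, and in GPNMB they occurred at 2 places. GPR143 did not pass either fit, so that the letters and the calls were not the same set. Windows of MLANA, MITF (3 windows) and PAX3 held none of the 5 motifs. Among the 182 higher genes the share with TCATGTG was 6.43% of 140 genes with a window. Among the colon epithelium markers, 5 had a window: GPA33 held TCATGTG, and CACCTG stood in GPA33, KRT20 and LGALS4 but not in KRT8 or CDX2. CACCTG stood in 56.5% of the 23 junction genes with a window, beside 24.1% of all genes. In the 33 lower genes it stood in 26.1% of the 23 with a window, beside 25% of the tested genes. A match describes letters in a window and not a site, and the lists were chosen with the expression values known.

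Genes of melanosome transport and of lysosomes are read against the 1.08% of tested genes higher and 0.195% lower. Of 18 tested transport genes 1 was higher and 0 were lower, with a median of 1.02. LYST, whose loss gives a pigment and immune disorder with giant granules, measured 12.28 and 11.87 against 7.88, 7.995 and 8.26, 16.3-fold. RAB27A, which ties melanosomes to the motor MYO5A, passed the line block alone at 2.69 (adjusted p = 0.0440 and 0.137), as did RAB32 at 3.72. MYO5A measured 12.77 in COLO741, 10.41 in SW620, 10.28 in HCT116 and 6.80 in HT29, and RAB38 13.19, 7.19, 10.60 and 7.26. For both genes HCT116 lay nearer to COLO741 than HT29 did, and neither passed. MLPH, the link between them, was level with HT29 and HCT116. Of 23 tested lysosome genes 2 were higher, GPNMB and the protease CTSK, which measured 12.77 and 11.88 against 6.98 to 7.39. A further 5 passed the line block alone, upward: ASAH1 (1.99), NPC1 (1.77), CLCN7 (1.49), LAMP2 (1.45) and CTSB (1.26). Both COLO741 arrays lay above the other 6 for 18 of the 23 tested lysosome genes, beside 17.2% of all tested genes. CTSZ, another cathepsin, went the other way by the line block alone, at 8.84 and 8.87 against 11.35 to 12.50. Levels of the related factors TFEB and TFE3 differed by -0.26 and 0.32.

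**Figure D3:**
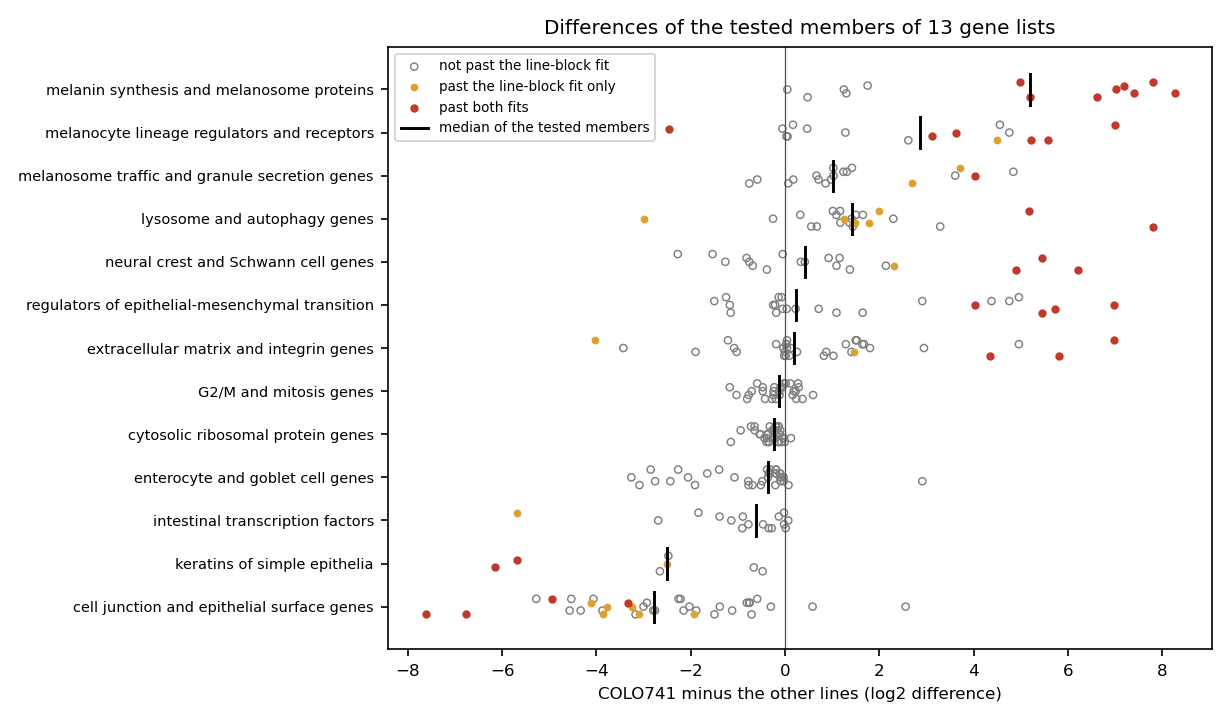
Difference of COLO741 minus the other lines (log2, horizontal axis) of each tested member of 13 gene lists, with red points past both fits, orange points past the line-block fit alone, open points past neither and a black bar at the median. Melanosome proteins have a median of 5.18 and junction genes one of -2.78. Mitosis and ribosomal genes have medians near 0 with no member called, but nearly all ribosomal genes lie below 0.

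Of 19 tested neural crest and Schwann cell genes 3 were higher, S100B, CDH19 and CDH2, 0 were lower, and the median was 0.42. The shares of all tested genes beside this list and the next were 1.08% higher and 0.195% lower. SOX2 and NES, genes of neural stem cells, measured 7.19 and 7.91 in COLO741 and 12.27 and 10.12 in SW620, and neither passed. NGFR, the nerve growth factor receptor of neural crest stem cells, was 8.61 beside 9.37. Of 23 tested regulators and targets of the epithelial-mesenchymal transition, the switch by which epithelial cells lose their junctions, 4 were higher and 0 lower, with a median of 0.22. SPARC, a matrix protein, measured 13.81 and 14.33 against 6.84, 7.05 and 7.36, at least 95.6-fold. ZEB2, a repressor of E-cadherin, measured 12.79 and 12.44 against 6.60, 6.83 and 7.40. CDH2, N-cadherin, measured 11.62 and 12.42 against 6.35, 6.57 and 6.69, and MMP14, a membrane protease, was 16.4-fold higher. ZEB1, the relative of ZEB2, passed neither fit and measured 7.43 and 9.81 in COLO741, 10.36 in SW620 and 7.07 in HT29, with HCT116 between these lines. VIM and FN1, vimentin and fibronectin, were bright in COLO741 at 14.07 and 13.42, but SW620 reached 13.52 and 9.89, and neither passed. TWIST1 differed by 1.09 and SNAI1 by -1.17.

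Matrix and integrin genes had a median of 0.18 over 34 tested members, of which 3 were higher (SPARC, SPP1 and LAMA4), beside 1.08% of all tested genes. SPP1, osteopontin, measured 12.70 and 13.88 against 6.87, 7.56 and 8.20, 55.7-fold with 3 of the other 6 arrays above background, and LAMA4, a laminin chain, differed by 4.34, at least 8.40-fold. ITGB4, the integrin of epithelial anchoring sites, was lower by the line block alone at 8.03 and 7.91 against 11.45 to 12.71 (adjusted p = 0.00418 and 0.126). The fibrillar collagens COL1A1, COL1A2 and COL3A1 differed by -0.02, -0.01 and 0.04. COL5A2, another of them, was higher by the line block alone (1.47, with mean levels of 8.17 in COLO741 and 6.70 over the other lines).

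Other genes of the largest or most certain upward differences belonged to none of these lists. GNG11, a G protein subunit, measured 13.46 and 13.51 against 5.63, 5.75 and 6.01, and GNB4, another subunit, 10.75 and 10.97 against 5.30 to 5.64. MMP8, a collagenase best known from neutrophils, measured 11.93 and 12.06 against 4.31, 4.56 and 4.92, at least 22.7-fold. None of 21 tested leukocyte genes was called beside it. At the 1.27% of all tested genes called, a list of that size would often hold none. MOXD1, a monooxygenase-like protein, differed by 6.86, at least 46.0-fold, and DUSP10, a phosphatase of stress-activated kinases, by 6.40, at least 58.8-fold. SYT14, a synaptotagmin, and PRTG, a receptor of the embryonic neural tube, differed by 5.49 and 5.13, with standard errors of 0.22 and 0.20, at least 11.2-fold and 13.2-fold.

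The genes lower in COLO741 included adhesion genes of epithelia. Of 38 tested junction and epithelial surface genes 4 were lower, beside 0.195% of all tested genes, and 0 were higher. A further 6 were lower by the line block alone, and the median was -2.78. EPCAM measured 6.43 and 5.37 against 13.32, 13.47 and 13.77, at least 64.8-fold. DSG2, a cadherin of desmosomes whose promoter is printed above, measured 5.30 and 5.35 against 11.55, 12.09 and 12.61, at least 24.2-fold. The groups were wide apart for both genes, with COLO741 at background. PERP, another desmosome protein, measured 7.997 and 7.67 against 12.23 to 13.22, and ESRP2, which sets the epithelial splicing pattern, 7.99 and 7.78 against 10.98 to 11.43. The 6 of the line block alone were SPINT2 (-4.12), CLDN4 (-3.87, at least 11.6-fold), SPINT1 (-3.79), DSP (-3.24), LSR (-3.10) and PKP2 (-1.94). MARVELD2 passed the line means alone (-4.53, at least 11.9-fold). CDH1, E-cadherin, passed neither fit (adjusted p = 0.146 and 0.324). It measured 7.35 and 6.95 in COLO741, below background, and 13.22 in HT29, 11.23 in HCT116 and 10.72 in SW620. RAB25, CLDN7, AP1M2 and GRHL2 were low in COLO741 and SW620 alike. RAB25 for example measured 6.18 and 6.21 in these lines and 12.63 and 11.88 in HT29 and HCT116. CD24 was low in COLO741 and HCT116, at 5.48 and 7.41. CLDN1, a claudin, was an exception, at 13.26 in COLO741 beside 13.11, 12.46 and 6.55 in SW620, HT29 and HCT116.

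Of 7 keratins of simple epithelia 2 were lower, beside 0.195% of all tested genes, and KRT18 passed the line block alone. KRT8 measured 8.11 and 8.57 against 14.23, 14.50 and 14.75, 71.1-fold. KRT19 measured 8.07 and 7.95 against 13.60, 13.66 and 13.89, 51.4-fold. KRT18, the partner with which KRT8 forms filaments, differed by less: 11.71 and 11.94 against 14.02 to 14.66, 5.72-fold. KRT18 has many near-identical pseudogene copies in the genome. Whether its probe set also reads those, and whether that bears on the smaller difference, was not tested. KRT20, the keratin of mature colon cells, measured 6.45 in COLO741, 6.69 in SW620, 7.16 in HCT116 and 12.94 in HT29, so that only HT29 carried it.

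None of 35 tested enterocyte and goblet cell genes and none of 16 intestinal transcription factors was called, beside 1.27% of all tested genes, with medians of -0.36 and -0.62. EHF, an epithelial ETS factor, was lower by the line block alone at 5.48 and 6.76 against 11.04 to 13.10 (adjusted p = 0.0268 and 0.182). CDX1 measured 8.73, 8.62, 8.74 and 8.80 in COLO741, SW620, HT29 and HCT116, and CDX2 8.56, 9.02, 9.09 and 9.92. LGALS4 was bright in HT29 alone at 13.99, beside 8.04 in COLO741, 8.27 in SW620 and 8.04 in HCT116. VIL1, villin, was bright in SW620 and HT29 at 12.42 and 11.69 and dim in COLO741 and HCT116 at 7.39 and 7.33. CDH17 and GPA33 were near or below background on all 8 arrays, from 5.35 to 7.91 and from 6.83 to 7.84. Of the 12 colon markers, COLO741 was below all other arrays for 8, GPA33 among them, beside 17.4% of all tested genes, and 3 passed both fits.

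The remaining large downward differences were those of enzymes and other genes outside the epithelial lists. ANXA3, an annexin, measured 5.95 and 6.26 against 12.87, 13.12 and 13.54, at least 51.8-fold. ME1, the cytosolic malic enzyme that yields NADPH, measured 5.57 and 5.50 against 11.88, 12.56 and 12.78, at least 29.8-fold. SAMHD1, which breaks down nucleotides and restricts viruses, measured 4.71 and 4.88 against 10.75, 11.24 and 11.999. These 3 genes were at background in COLO741 and bright in the other lines. PRDX1, a peroxiredoxin that removes hydrogen peroxide, measured 8.81 and 8.93 against 13.93, 13.99 and 14.11, 35.4-fold (SE of the difference 0.20). GLUL, glutamine synthetase, measured 7.60 and 7.69 against 11.94 to 12.23, 21.4-fold. CENPV and the imprinted gene MEST differed by -5.99 and -5.51, at least 22.2-fold and 18.4-fold, with COLO741 below background. HOOK1 and MACC1 passed the line block alone, at -5.71 and -5.44, at least 7.37-fold and 15.5-fold, with line-mean adjusted p of 0.0600 and 0.274.

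Lists of signalling genes are read against the 1.27% of tested genes called. Of 26 tested Wnt targets 1 was lower: BMP4, a secreted growth factor, measured 8.44 and 8.64 against 12.95, 13.39 and 13.58, 27.3-fold. RNF43 and PROM1, genes of intestinal stem cells, were lower by the line block alone (-3.49 and -3.33), and the list's median was -0.93. Of 21 MAP kinase output genes none passed both fits, with a median of 0.24, and DUSP4 passed the line block alone (1.97). Of 32 receptor tyrosine kinases and ligands none passed both fits, and MST1R was lower by the line block alone (-2.65, at least 5.80-fold). Of 29 apoptosis regulators none passed both fits. BCL2A1, a survival gene that MITF is known to drive, passed the line means alone, with 9.77 and 8.73 against 5.85 to 6.65. BCL2L1 and the death receptor TNFRSF10A were lower by the line block alone (-1.41 and -3.55, the latter at least 7.39-fold). BCL2L1 still measured 11.57 in COLO741, well above background.

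The lists that follow are read against the same shares, 1.08% of tested genes higher and 0.195% lower. Of 16 tested cancer-testis antigen genes, which are normally silent outside the germ line, MAGEC1 (11.88 and 11.45 against 6.35 to 6.77) and MAGEA10 (1.79, at least 2.44-fold) were higher. Of 33 drug metabolism genes GSTM3 was higher (3.67, at least 3.57-fold), while CYP1A1 and GSTM2 were higher and CYP2S1 lower by the line block alone. GSTM genes are close copies of each other, so their probe sets may share signal. Of 15 ganglioside genes none passed both fits, and ST6GALNAC3 (4.60), ST3GAL5 (3.82) and ST8SIA1 (1.33, at least 1.59-fold), which makes the ganglioside GD3 of melanoma, passed the line block alone. Of 27 ABC transporters none passed both fits, of 26 HOX genes HOXB8 was lower by the line block alone (-2.58), and of 14 antigen presentation genes PSMB8 was higher by it (1.92). Of 29 mitosis genes and 37 ribosomal protein genes none was called by either fit, with medians of -0.13 and -0.23. Both COLO741 arrays lay below the other 6 for 9 of the mitosis genes and 26 of the ribosomal genes, beside 17.4% of all tested genes. Only 1 ribosomal gene had a difference above 0, so that small downward differences ran through nearly the whole list.

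Markers of other cell types were examined on all arrays. None of 4 tested leukocyte, 4 fibroblast and 4 endothelial markers was called. With 1.27% of all tested genes called, none of so few is the usual outcome, so these counts do not show that such cells were absent. Of 4 neuron markers SNAP25, a protein of vesicle release, was higher at 11.02 and 10.51 against 7.35 to 8.05. FAP, a protease of activated fibroblasts, was higher among the 19 tested fibroblast and endothelial genes (3.86, at least 2.89-fold), while COL1A1 was 8.97 in COLO741 and 8.99 over the other lines. On the SW620 array labelled ABCB5-positive, 7 of 23 measured leukocyte genes stood over 1 above its partner array, and their mean level was 8.24 beside 7.53 on the partner, 7.32 to 7.72 on the HT29 and HCT116 arrays and 7.39 and 7.31 in COLO741. PTPRC, the pan-leukocyte antigen, measured 6.96 against 4.87, MS4A1 6.72 against 5.62 and CD14 8.74 against 7.37. In bulk samples fewer cells of a type and less RNA per cell cannot be told apart, and the part of these levels in the comparison was not tested. Without that array the genes past both fits, a count added later, numbered 193, of which 182 were among the 215.

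The difference between the arrays labelled ABCB5-positive and ABCB5-negative was another one in COLO741 than in the other lines for 57 genes, 0.337% of those tested (limma, adjusted p under 0.05 for the interaction). For 52 (0.308%) the COLO741 difference lay above that of the other lines and for 5 (0.0296%) below it. For 56 of the 57 the difference was within 0.5 of 0 in each of the other lines. The share of all tested genes within that bound was not determined. The test favours genes that are flat in those lines, so this count is no finding about the 57. None of the 57 passed the line-block fit of the lines. A gap between the 2 COLO741 arrays, which the interaction picks, also widens the standard error of that fit. It was 1.685 for PM20D2, beside a median of 0.309 over all tested genes. Failing that fit was thus partly built in, and the line differences could still be large, such as -3.35 for PM20D2 and -3.57 for SLC38A1. COLO741 gives 1 such difference, so that the spread of this test came from the other 3 lines alone, and over all tested genes the SD of the differences was 0.319 in COLO741 beside 0.148 to 0.237 in the others. The count was 328 with a prior variance that follows the level, and 0 by limma without HCT116, where 1834 genes had an unadjusted p under 0.05 and 1 residual degree of freedom was left in place of 2. PM20D2, a peptidase, measured 7.41 and 10.17 in COLO741 and 12.07 to 12.22 in the other lines, so that the ABCB5-negative COLO741 array was the low one. NLGN4X, a neuronal adhesion protein, went from 7.91 to 10.57, and SLC38A1, a glutamine transporter, from 9.08 to 11.38 (adjusted p = 0.0129 for each). The cancer-testis gene MAGEC2 went from 7.80 to 10.23, and KDR, an endothelial growth factor receptor, from 6.69 to 8.25 while the other endothelial markers measured 7.57 or less in COLO741. IRF4 went the other way, from 10.37 to 8.67 (interaction -1.98, SE 0.17, adjusted p = 0.0246), as did HOXB13 (-1.49) and the adaptor DOK5 (-1.44).

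**Figure D4:**
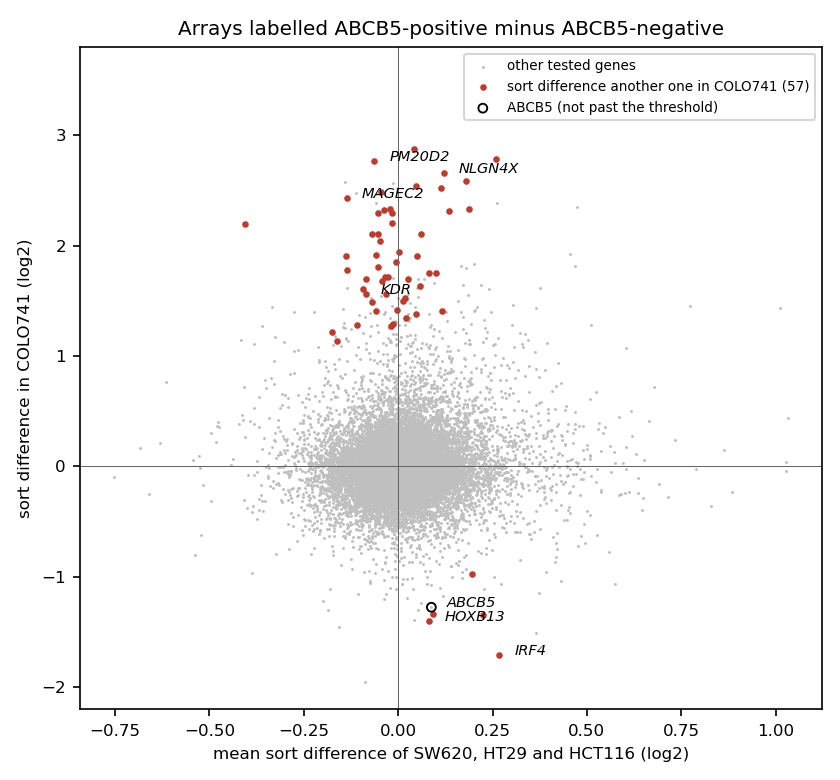
Sort difference (array labelled ABCB5-positive minus ABCB5-negative, log2) in COLO741 (vertical axis) against the mean of the other 3 lines (horizontal axis) for every tested gene, with the 57 genes past the interaction test in red and ABCB5 circled. The 52 red points above 0 lie near 0 on the horizontal axis, and IRF4 and HOXB13 lie below 0 beside ABCB5.

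Melanosome genes shared the direction of ABCB5 between the COLO741 populations in part. ABCB5 differed by -1.28 between the array labelled ABCB5-positive and its partner, with an interaction of -1.37 (adjusted p = 0.0777), which did not pass. OCA2, TRPM1 and GPR143 differed by -0.95, -1.03 and -0.96, TYRP1 by -0.61, TYR by 0.07 and MITF by -0.07. With 1 array per population in COLO741 these single differences have no replicate, and none of the melanosome proteins passed the interaction test.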

How the data were processed

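RNA of ABCB5-negative and ABCB5-positive populations of 4 cell lines was measured on 8 Affymetrix Human Gene 1.0 ST arrays, 1 per line and population. The authors deposited 1 log2 value for each of 33297 probe sets and array, made with Affymetrix Expression Console per the submitters' processing notes. The log2 scale was read from the range of the deposited values, 2.99 to 15.24, while its version and the way probe sets were summarised and normalized are not stated there. Values were used as deposited.

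The platform annotation named 1 gene for 19460 probe sets, several for 1754 and none for 12083. Symbols were updated through the gene ID of GRCh38.p14 for 19429 of the 19460. For 769 of the 18417 genes with several probe sets, the one of the highest mean was taken. A filter removed 1507 genes whose mean over all 8 arrays, COLO741 included, lay under the median of 360 olfactory receptor probe sets (5.735). The background limit of an array is the 95th percentile of those probe sets. The number of arrays limits the precision.

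Differences were fitted with limma 3.58.1 in R 4.3.3 (two-sided, Benjamini-Hochberg adjustment over the 16910 tested genes, threshold 0.05), with the line as random block (correlation 0.823) and population as covariate. A second fit used the 4 line means. The planned analysis called genes by the line block alone. On simulated arrays with unchanged genes that fit called more of them than its threshold allows, and the line means did not, so the text calls a gene only where it passed both. The interaction of COLO741 with population was fitted with the line as fixed block. At an unadjusted p under 0.05 the line block gave 2356 genes, the line means 1890 and the interaction 2300. Lists are described by counts and medians.

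Besides markers and list members, the text names the 12 genes of largest difference and the 8 of smallest p per direction, and for the interaction the 3 of smallest p per direction. Genes outside this rule, among them the cytokine and peroxiredoxin genes and the neighbours under the closing observations, were chosen after their values were seen. The comparison, its gene lists and its markers were chosen with earlier results of these data known.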

Additional observations from a re-analysis of the deposited data

Results flagged for a closer look

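For 14 genes named by the rule or by a list, the sort difference (array labelled ABCB5-positive minus ABCB5-negative, log2) was another one in COLO741 than in SW620, HT29 and HCT116 by limma's interaction test at an adjusted p under 0.05. The values below are the COLO741 difference minus the mean difference of the other lines.

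Upward, PM20D2 stood at 2.83, with differences of 0.03, -0.14 and -0.08 in SW620, HT29 and HCT116. NLGN4X stood at 2.54, SLC38A1 at 2.35 and the cancer-testis gene MAGEC2 at 2.57. UGT8, which makes galactosylceramide of myelin, stood at 2.53, and ALDH1A1, an aldehyde dehydrogenase often used as a stem cell marker, at 1.70. The growth factor receptor KDR stood at 1.65 and the basement membrane collagen COL4A2 at 1.42. The epithelial membrane proteins MARVELD2 and MAL2 stood at 1.75 and 1.30, and the germ cell gene TEX15 at 1.30.

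Downward, the transcription factor IRF4 stood at -1.98, with differences of 0.11, 0.44 and 0.26 in the other lines. HOXB13, a factor of the hindgut and prostate, stood at -1.49 and the adaptor DOK5 at -1.44.

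Over all tested genes the SD of the sort difference was 0.319 for COLO741 and 0.237, 0.195 and 0.148 for SW620, HT29 and HCT116, and 275, 104, 50 and 5 genes of these lines differed by over 1 in size. The part of that wider spread in these 14 values was not tested, and COLO741 has 1 array per population.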

How the results depend on the processing

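The line-block fit called 518 genes (353 higher, 165 lower). Without the line block there were 2057 (1199 and 858), with line means 257 (218 and 39), on ABCB5-negative arrays 237 (202 and 35), on ABCB5-positive arrays 214 (179 and 35), and with the stricter filter 242 (133 and 109). The share of higher calls, 68.1%, was then 58.3%, 84.8%, 85.2%, 83.6% and 55.0%. Leaving out 1 array gave 349 to 496 genes, 247 to 358 higher and 98 to 145 lower. The 215 past both fits (182 and 33) became 58 (43 and 15) with the stricter filter and 179 to 251 when leaving out 1 array (146 to 215 higher, 28 to 44 lower), and of the 215, 204 were shared under quantile normalization. Without SW620, HT29 or HCT116 they became 0 (0 and 0), and 79.7% to 80.7% of the 518 were still called by the line block. The interaction count, 57, was 328 with the prior variance following the level and 0 without HCT116. Of 100 genes named by the rule, 7 changed sign under at least 1 of these alternatives, all of a size of at most 0.038 and past the threshold in no setting where they did, and 0 of the 70 past the line block did. COLO741 and the other lines could not be paired with each other. The 2 arrays of a line were modelled through the line, as a random block in the comparison of lines and a fixed block in the interaction. Dim genes have bounds only, and with 1 array per line and population no line's own error is measured.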

Other observations

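Several genes outside the lists also differed, and they were chosen after their values were seen. Of the 33 genes lower in COLO741, 21 lay between tested neighbours in gene order (GRCh38.p14) that both differed by less than 1. So did 91 of the 182 higher genes. The share of all tested genes with such neighbours was not determined, so these counts do not set the called genes apart. PRDX1 (-5.15) lies between MMACHC (0.20) and NASP (-0.71), and ME1 (-6.86, at least 29.8-fold) between RWDD2A (-0.19) and PRSS35 (0.06). SAMHD1 (-6.54, at least 14.3-fold) lies between TLDC2 (-0.77) and RBL1 (0.21), and MEST (-5.51, at least 18.4-fold) between CEP41 (0.85) and KLF14 (0.10).

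Relatives of PRDX1 differed by less. PRDX2, PRDX3, PRDX4 and PRDX6 differed by 0.11, -0.59, 0.44 and -0.23, and thioredoxin (TXN) and its reductase (TXNRD1), which recharge these enzymes, by -0.43 and 0.44. None of these passed either fit. The other malic enzymes, ME2 and ME3, differed by -0.01 and -1.09.

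Some neighbours had differences of opposite sign, and 2 examples follow. MYO5C, an epithelial myosin, was lower (-4.78, at least 9.84-fold) beside MYO5A (3.61, past neither fit), the myosin that carries melanosomes. PERP was lower (-4.95) beside TNFAIP3 (3.86), which was higher. TYR (6.61, at least 23.1-fold) has NOX4 (4.02, at least 7.41-fold), an oxidase, as its neighbour, and both were higher.

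Among the other higher genes, IL24, a cytokine first found in melanoma cells, measured 11.05 and 10.42 in COLO741 against 6.07 to 6.27. The adhesion molecule ICAM1 differed by 4.36, the NF-kappa-B feedback gene TNFAIP3 by 3.86, the matrix-binding TNFAIP6 by 3.82 (at least 4.11-fold), the chemokine CXCL1 by 3.37 and IL6 by 2.20 (at least 2.11-fold), all past both fits. CXCL8 differed by 2.70 and did not pass. IFI16, a DNA sensor, measured 11.72 and 11.60 against 5.17 to 6.27. PPARGC1A, a coactivator of mitochondrial genes that MITF is known to drive in melanoma, measured 10.32 and 10.82 against 5.77 to 6.24.

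MTAP, a gene of methionine salvage beside the CDKN2A locus, measured 6.65 and 6.38 in COLO741 against 10.91 to 12.01, and passed the line block alone. CDKN2A, the cell cycle inhibitor, measured 8.78 and 8.94 against 9.86 to 10.86 and passed neither fit. CDKN2B, another gene of that locus, measured 8.95 and 8.40 against 9.05 to 9.95 and passed neither fit. Both CDKN2A and CDKN2B were above background on all 8 arrays.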
